A study of Mus musculus with 9 samples.

Results

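The Pramel genes are a large family of related and partly identical gene copies in the mouse genome. Their transcripts were followed in day 6 embryoid bodies of R1 mouse embryonic stem cells in 3 groups, one with a control hairpin (sh-ctrl), one in which Pfkp, a gene of glycolysis, was knocked down (sh-Pfkp) and one in which Lin41, the protein of the Trim71 gene, was knocked down (sh-Lin41). The members were the genes of the deposited tables whose symbol starts with Pramel, which gave 47 of 22322 listed genes. Of these, 29 had at least 1 read count in the 9 libraries, 23 had at least 10 counts in all libraries together, and 18 were at 0 counts in every library. The family was taken up because some members, Pramel45 and Pramel19 among them, were known to exceed their control level in sh-Pfkp. Values and calls of that comparison are therefore given as a description, and nothing about the family is read from them. Comparisons of sh-Pfkp with sh-Lin41 use the same sh-Pfkp libraries, so they too are descriptions.

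PRAME-family proteins are built of leucine-rich repeats and are named after a human tumour antigen that is normally restricted to germ cells. Several of them serve as the substrate-recognising part of Cullin 2 ubiquitin ligases. Pramel6 and Pramel7 are known from the inner cell mass and from naive embryonic stem cells, where PRAMEL7 directs the degradation of UHRF1, the factor that brings the maintenance methyltransferase DNMT1 to newly copied DNA, and Pramel7 lies downstream of the LIF and STAT3 signal. Most other mouse members are known only as tandem copies, with transcripts described mainly in germ cells and early embryos.

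There were 3 groups of 3 libraries. All carried an R1 background and were grown for 6 days in suspension without LIF, the cytokine that holds mouse stem cells undifferentiated. The labels call sh-ctrl wild type and the other groups a Pfkp knockdown and a Lin41 knockdown. The labels name 1 hairpin per target, so an effect of that hairpin or cell line cannot be told apart from the knockdown, and they do not say that the libraries are separate cultures; the p-values then measure a spread that may be technical. Total counts lay between 15495194 and 20607683 per library. Pfkp was at 102.9 ± 1.89 CPM (counts per library size after TMM adjustment; mean ± SD, n = 3) in sh-Pfkp against 247.1 ± 1.83 in sh-ctrl, and Trim71 was at 159.6 ± 4.89 CPM in sh-Lin41 against 268.8 ± 4.72 in sh-ctrl. Pluripotency markers were abundant in all groups, but their summed levels did not overlap, at 4732 to 4809 CPM in sh-ctrl, 4287 to 4375 in sh-Pfkp and 5631 to 5660 in sh-Lin41. Of 8 tested, 3 were called higher and 5 lower in sh-Pfkp than in sh-ctrl (edgeR adjusted p under 0.05). There, 28.3% of all genes tested were called each way. In sh-Lin41, 6 were called higher and 1 lower, against 26.9% and 27.3% of all genes tested. The part of these markers in the Pramel levels was not tested. In bulk samples such as these, fewer expressing cells and less RNA per cell cannot be told apart.

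Because the members are copies of one another, the sequence decides which of them a read can be assigned to. All 47 gene identifiers matched the GENCODE M21 annotation of GRCm38, which places 25 members on chromosome 4, 18 on chromosome 5, 2 on chromosome 2 and 1 each on chromosomes 12 and X. The annotation and build behind the deposited counts were not given in the sources used here. The shares below describe the reference transcripts, not the authors' counting. For each member, the share of 100-base windows of its transcripts that occur in no other gene's transcripts was computed. This share was 100% for 8 members (Pramel1, Pramel6, Pramel7, Pramel12, Pramel13, Pramel15, Pramel23 and Pramel32), 98.3% for Pramel24 and 96.4% for Pramel5. It was 0% for Pramel36, Pramel37, Pramel49 and Pramel50, all on chromosome 5. Between these ends lay Pramel31 with 86.0%, Pramel19 with 62.2%, Pramel20 with 60.2%, Pramel45 with 34.6% and Pramel40 with 13.7%.

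The copies that cannot be separated are shown here by 60 bases of their coding sequence, bases 1363 to 1422, from the same reference, with capitals at each base that differs from Pramel36. This stretch was picked for having the most differences from Pramel36, so it is not typical of the coding sequence. Pramel36 and Pramel49 are identical over all 1443 coding bases, as are Pramel37 and Pramel50, and the second pair differs from Pramel36 at 35 coding bases, 9 of them in this window.
Pramel36: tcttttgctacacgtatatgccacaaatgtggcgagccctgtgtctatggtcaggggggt
Pramel49: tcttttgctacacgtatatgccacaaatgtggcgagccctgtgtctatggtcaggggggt
Pramel37: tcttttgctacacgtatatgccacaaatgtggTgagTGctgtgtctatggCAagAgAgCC
Pramel50: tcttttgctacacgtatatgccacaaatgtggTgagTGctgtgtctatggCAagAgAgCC
A read from this stretch tells the pairs apart but not the genes within a pair. Pramel43 and Pramel46 have the Pramel36 letters throughout this window and differ from it at 9 and 6 coding bases elsewhere.

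A set of chromosome 4 copies differs at more coding bases than those above. The next stretch, coding bases 523 to 582, shows Pramel20 with its relatives Pramel31 and Pramel28, with capitals at bases that differ from Pramel20. It too was picked for having the most differences, with 6 in Pramel31 and 7 in Pramel28.
Pramel20: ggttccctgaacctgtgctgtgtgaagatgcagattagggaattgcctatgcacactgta
Pramel31: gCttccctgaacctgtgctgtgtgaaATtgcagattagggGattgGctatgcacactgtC
Pramel28: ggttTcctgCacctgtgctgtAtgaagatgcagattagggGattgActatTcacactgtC
Pramel31 differs from Pramel20 at 47 of 1443 coding bases and Pramel28 at 61, so some but not all reads can be assigned to 1 gene. Pramel28 had 0 counts in all 9 libraries, whereas Pramel20 and Pramel31 had 102 and 172 counts over the same libraries.

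**Figure D1:**
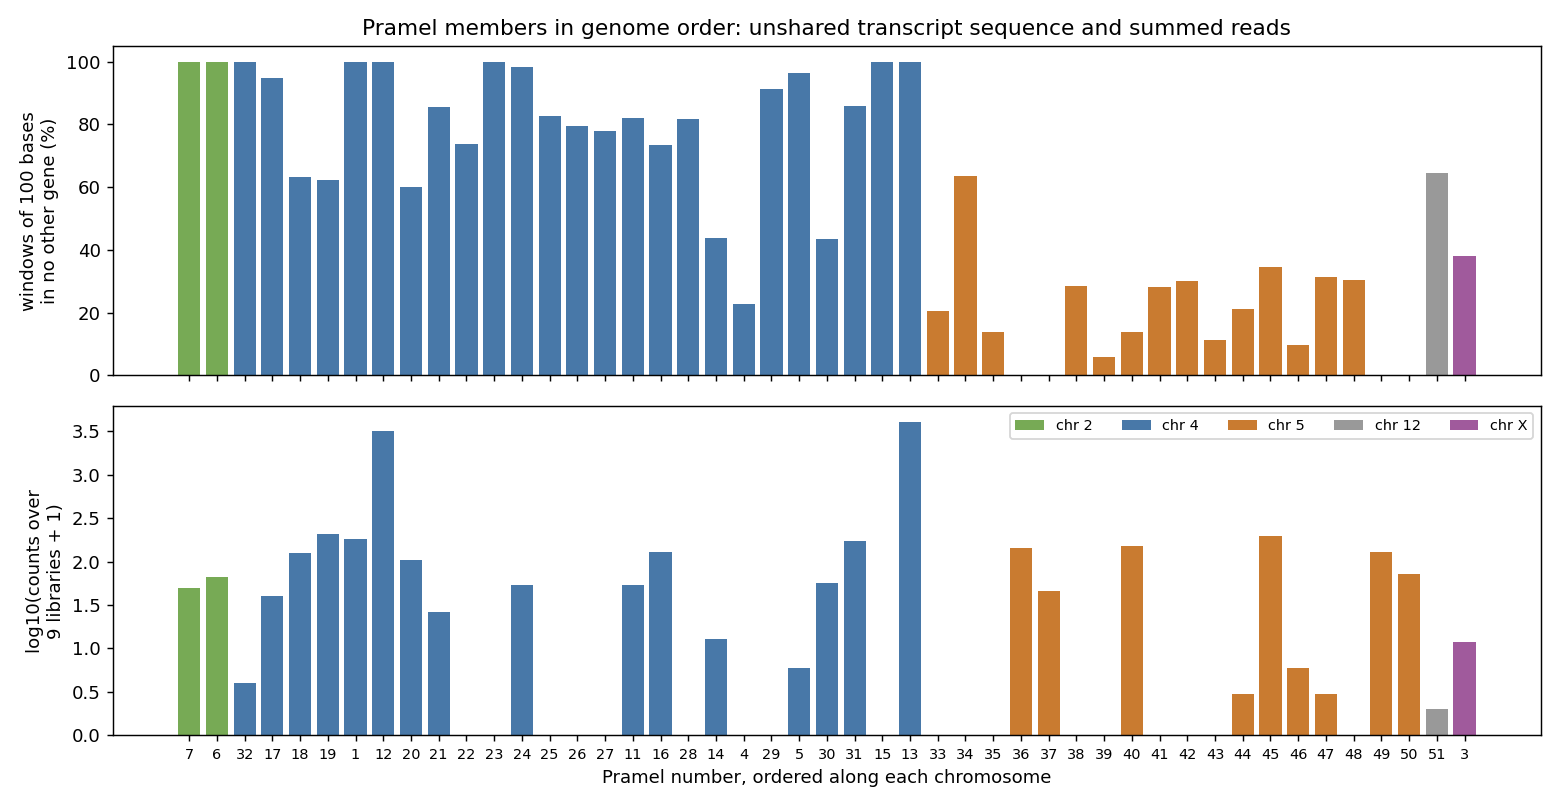
Each bar is 1 of the 47 Pramel members in the order of their positions along chromosomes 2, 4, 5, 12 and X. The upper axis gives the percent of 100-base transcript windows found in no other gene, the lower axis the base 10 logarithm of the counts summed over 9 libraries plus 1; most chromosome 5 members stand low in the upper row and Pramel12 and Pramel13 stand above all others in the lower row.

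The promoters of the family were the other sequence feature examined. RefSeq promoter sequences (GRCm38.p6) matched 37 of the 47 members by symbol, and the 10 without an entry include Pramel12, Pramel18 and Pramel36. The 250 bases before the RefSeq start are printed for the pair known from the inner cell mass, for members that were higher in the knockdown libraries, and for 2 that were not, with each CG dinucleotide, the target of DNA methylation, in capitals.
Pramel6 (chr2:87506315-87506564, plus strand): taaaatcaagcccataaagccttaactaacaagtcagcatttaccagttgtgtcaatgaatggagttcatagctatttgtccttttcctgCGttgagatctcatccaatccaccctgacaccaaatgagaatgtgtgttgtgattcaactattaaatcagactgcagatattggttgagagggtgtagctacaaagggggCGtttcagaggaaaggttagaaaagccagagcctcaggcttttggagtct
Pramel7 (chr2:87492419-87492668, minus strand): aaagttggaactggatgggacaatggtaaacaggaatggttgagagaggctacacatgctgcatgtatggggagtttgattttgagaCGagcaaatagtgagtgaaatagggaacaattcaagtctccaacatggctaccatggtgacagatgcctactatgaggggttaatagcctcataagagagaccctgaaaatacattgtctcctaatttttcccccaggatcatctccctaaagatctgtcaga
Pramel19 (chr4:101940157-101940406, plus strand): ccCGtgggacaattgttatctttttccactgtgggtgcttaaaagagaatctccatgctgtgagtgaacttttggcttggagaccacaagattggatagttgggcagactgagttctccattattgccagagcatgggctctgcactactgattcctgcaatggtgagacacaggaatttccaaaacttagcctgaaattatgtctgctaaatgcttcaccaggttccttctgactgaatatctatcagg
Pramel20 (chr4:143567217-143567466, plus strand): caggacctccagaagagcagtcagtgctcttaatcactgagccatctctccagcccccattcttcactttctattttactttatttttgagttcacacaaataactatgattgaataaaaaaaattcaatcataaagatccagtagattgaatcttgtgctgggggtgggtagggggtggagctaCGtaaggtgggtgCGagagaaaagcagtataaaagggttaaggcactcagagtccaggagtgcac
Pramel40 (chr5:94297743-94297992, plus strand): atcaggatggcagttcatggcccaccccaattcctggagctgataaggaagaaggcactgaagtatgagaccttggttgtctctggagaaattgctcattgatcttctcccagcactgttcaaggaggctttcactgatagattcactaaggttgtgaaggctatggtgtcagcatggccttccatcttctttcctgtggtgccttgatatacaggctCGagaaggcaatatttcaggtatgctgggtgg
Pramel45 (chr5:95108206-95108455, plus strand): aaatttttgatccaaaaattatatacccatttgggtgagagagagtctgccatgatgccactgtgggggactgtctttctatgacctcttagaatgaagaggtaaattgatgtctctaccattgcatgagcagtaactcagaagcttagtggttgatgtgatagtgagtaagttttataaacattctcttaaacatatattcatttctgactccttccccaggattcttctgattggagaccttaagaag
Pramel13 (chr4:144408465-144408714, minus strand): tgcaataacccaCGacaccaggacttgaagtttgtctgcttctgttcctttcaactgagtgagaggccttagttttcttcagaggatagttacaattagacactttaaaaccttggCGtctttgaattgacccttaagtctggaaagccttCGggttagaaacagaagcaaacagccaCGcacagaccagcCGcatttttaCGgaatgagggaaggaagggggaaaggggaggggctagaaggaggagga
Pramel1 (chr4:143394191-143394440, plus strand): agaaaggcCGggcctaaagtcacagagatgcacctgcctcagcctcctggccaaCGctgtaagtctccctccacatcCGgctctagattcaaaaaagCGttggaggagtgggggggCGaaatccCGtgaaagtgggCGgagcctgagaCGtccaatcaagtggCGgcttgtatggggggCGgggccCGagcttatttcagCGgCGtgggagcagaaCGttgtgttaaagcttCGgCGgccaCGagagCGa
Pramel45 has no CG in this window, Pramel7, Pramel19 and Pramel40 have 1, and Pramel6 and Pramel20 have 2. Pramel13 has 6 and Pramel1 has 18, the highest number among the members.

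Over the 37 matched members the median was 1 CG per 250 bases, with a range of 0 to 18, against a median of 6 in all 32851 promoters of the table. At most 3 CG were present in 33 of 37 members (89.2%) and in 37.8% of all promoters. Copies share their promoters, so these are not independent: Pramel37 and Pramel50 are identical over the 250 bases, Pramel33 and Pramel35 are 99.6% identical and Pramel46 and Pramel49 99.2%. The 14 matched members at 0 counts in all libraries had 0 to 2 CG and the 20 with at least 10 counts 0 to 18, with a median of 1 in both. In Pramel5, Pramel7, Pramel31 and Pramel32 some of the 250 bases lie in the member's own GENCODE M21 transcripts, and in Pramel29 all do, so the starts of those annotations differ there.

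Core promoter motifs were searched at any position of the same windows on both strands, and none of the motifs contains another. TATAAA, known as the TATA box, was present in 12 of 37 members (32.4%) and in 12.4% of all promoters.

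The box CCAAT was present in 20 of 37 members (54.1%) and in 33.8% of all promoters. Pramel37, Pramel39, Pramel43, Pramel45, Pramel46, Pramel49 and Pramel50 hold both this and the TATA box.

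The GC box GGGCGG was present in 1 of 37 members (2.7%), which was Pramel1, and in 32.7% of all promoters. Binding, methylation and the positions of transcription starts were not measured in these libraries, so the windows are promoters by annotation only.

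**Figure D2:**
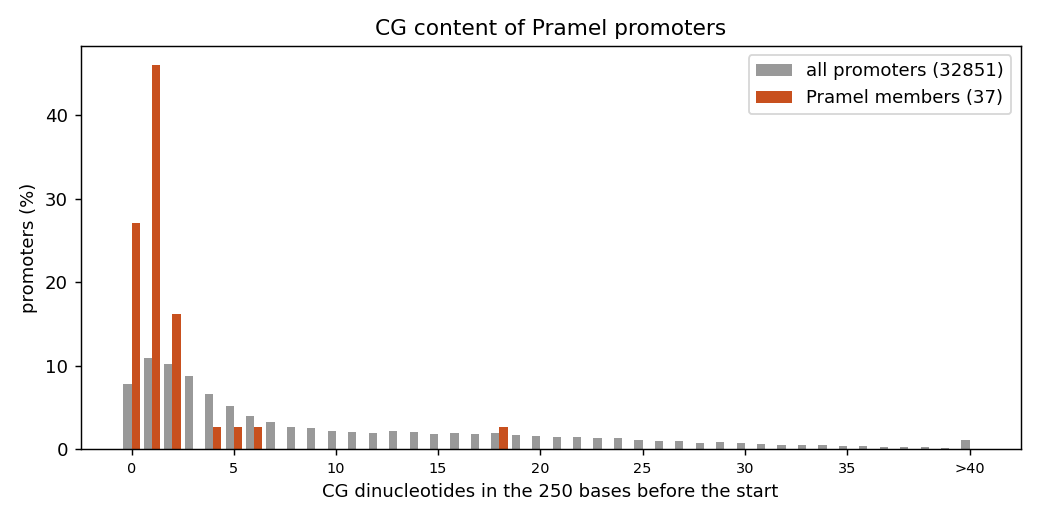
The horizontal axis is the number of CG dinucleotides in the 250 bases before the annotated start and the vertical axis the percent of promoters, for all 32851 RefSeq promoters in grey and the 37 matched Pramel members in orange. The members crowd at 0 to 2 CG, with single members at 4, 5, 6 and 18.

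Reads were spread very unevenly over the family. Levels of different genes are compared as the deposited FPKM, which are scaled by gene length. In sh-ctrl, Pramel13 was at 13.6 ± 0.233 FPKM (SD, n = 3) and Pramel12 at 5.04 ± 0.511 FPKM, and these levels do not overlap. The next was Pramel1, known from the male germ line, at 0.357 ± 0.0737 FPKM, followed by Pramel36 at 0.243 ± 0.162, Pramel31 at 0.22 ± 0.0872, Pramel45 at 0.21 ± 0.144 and Pramel19 at 0.2 ± 0.07 FPKM, neighbours that lie within each other's spread. Every other member was below 0.2 FPKM in sh-ctrl. In sh-Pfkp the order behind Pramel13 (12.99 ± 0.201 FPKM) and Pramel12 (7.72 ± 0.637) became Pramel45 at 1.54 ± 0.101 and Pramel19 at 1.29 ± 0.0954 FPKM. In sh-Lin41, Pramel13 and Pramel12 were at 12.4 ± 0.0961 and 4.55 ± 0.548 FPKM, and Pramel19 was next at 1.00 ± 0.489 FPKM.

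Detection also differed between the groups. The total counts of a library were 15495194 to 18091664 in sh-ctrl, 17549322 to 19981983 in sh-Pfkp and 17961720 to 20607683 in sh-Lin41, so the control libraries were somewhat shallower. At least 1 count was present for 22 members in sh-ctrl, 27 in sh-Pfkp and 26 in sh-Lin41. At least 10 counts over the 3 libraries were present for 12, 21 and 18 members, and a count in every library of the group for 13, 21 and 20. A member at 0 in a library may have had up to 3 counts by counting error alone, so the 18 members at 0 are not shown to be silent. The assignment of shared reads enters for some of them and was not tested. Pramel43, with 11.4% unshared windows, is 99.4% identical in coding sequence to Pramel36, which had 143 counts. The 18 members at 0 include 9 of the 25 members of chromosome 4 and 9 of the 18 of chromosome 5. Their share of unshared 100-base windows ran from 5.89% to 100%, with a median of 47.0%, against 63.1% in the 23 members with at least 10 counts.

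The family total mostly reflects Pramel12 and Pramel13. All members together had 813, 742 and 821 counts in the sh-ctrl libraries, 1390, 1395 and 1135 in sh-Pfkp and 982, 1037 and 935 in sh-Lin41. The corresponding means were 46.2 ± 1.35, 70.2 ± 3.74 and 50.3 ± 1.11 CPM (SD, n = 3), 1.52 times the control level in sh-Pfkp and 1.09 times in sh-Lin41, and no groups overlapped. Without Pramel12 and Pramel13, a total added after their levels were seen, the other 45 members together had 62, 63 and 88 counts in sh-ctrl, 369, 373 and 329 in sh-Pfkp and 231, 247 and 259 in sh-Lin41. That is 4.125 ± 0.633, 19.23 ± 0.165 and 12.59 ± 1.45 CPM, or 4.66 times the control level in sh-Pfkp and 3.05 times in sh-Lin41. A total over copies does not depend on which copy a read was assigned to, as long as the read stayed within the family. Some reference sequence is also shared with genes outside it. This held for 83.6% of the 100-base windows of Pramel40, 65.4% of Pramel45 and 37.1% of Pramel36 and Pramel49. It held for 0% in Pramel12, Pramel13 and Pramel19. Totals over the family, a chromosome or a set of copies can therefore depend on how such reads were assigned.

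The low-count filter of edgeR left 12 members for testing: Pramel1, Pramel12, Pramel13, Pramel16, Pramel18, Pramel19, Pramel20, Pramel31, Pramel36, Pramel40, Pramel45 and Pramel49. Members low in sh-ctrl passed it only through the libraries in which they were high, so the counts of calls among these 12 describe them and support nothing about the family. Of the 12, 10 were higher and 0 lower in sh-Pfkp against sh-ctrl at an edgeR adjusted p under 0.05 (0 lower also at an unadjusted p under 0.05 and in DESeq2, limma-voom and limma-trend), where 28.3% of all 13158 genes tested were called higher and 28.3% lower; nothing is read from this count, since the family was chosen on this comparison. Against the same control libraries, 8 of the 12 were higher and 1 was lower in sh-Lin41, where 26.9% of all genes tested were called higher and 27.3% lower. All 8 were called with a fold change of at least 2, which held for 2.04% of all genes tested. Of the 29 members with any count, the 3 libraries of sh-Lin41 lay above the 3 of sh-ctrl for 12 and below for 1 (Pramel13), and this held for 22.8% and 22.9% of all genes with a count. For sh-Pfkp against sh-ctrl the same was true of 18 and 0 members, against 23.7% and 24.2% of genes. Both comparisons share the control libraries, so they are not independent of each other.

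**Figure D3:**
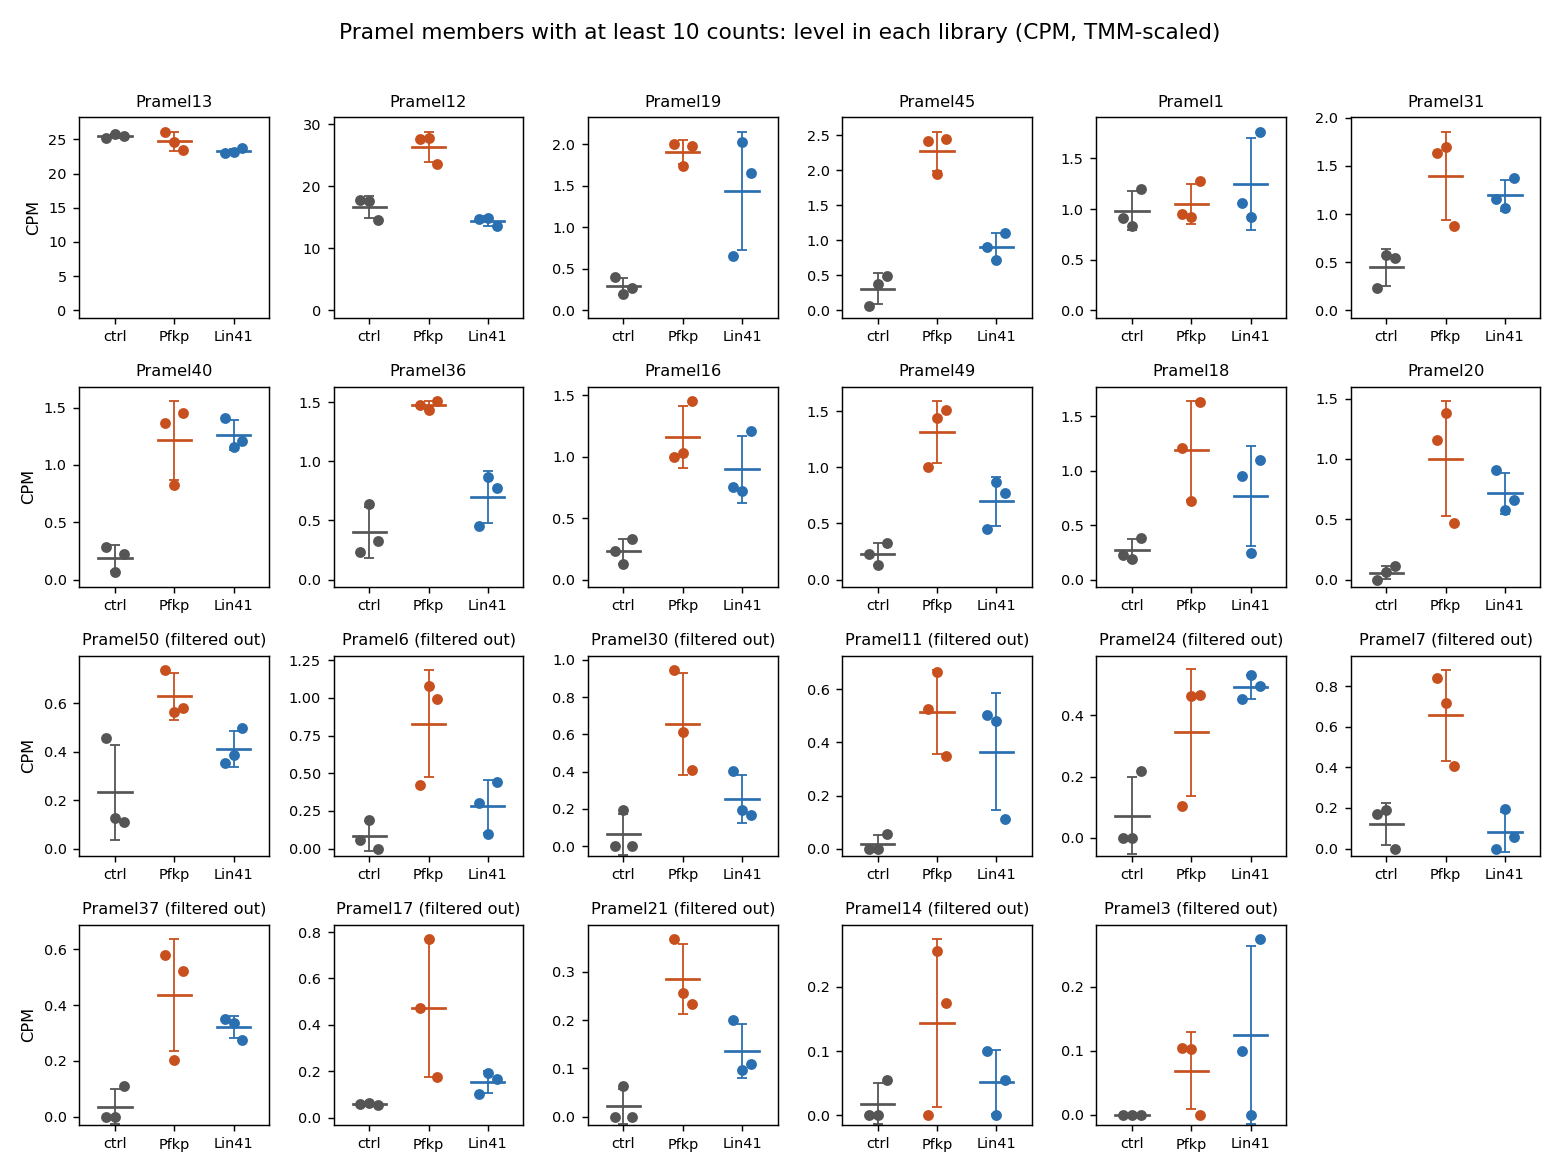
Each panel is 1 of the 23 Pramel members with at least 10 counts, with CPM on the vertical axis, 1 point per library, a line at the group mean and bars of 1 SD (n = 3) for sh-ctrl (grey), sh-Pfkp (orange) and sh-Lin41 (blue). Members marked as filtered out were not tested; Pramel13 and Pramel1 have overlapping sh-ctrl and sh-Pfkp points, whereas most other panels have sh-ctrl as the lowest group.

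Pramel6 and Pramel7, neighbours on chromosome 2 and the members best known from naive stem cells, were among the low ones, and both consist wholly of unshared windows. Pramel7 had 3, 3 and 0 counts in sh-ctrl, 16, 14 and 7 in sh-Pfkp and 0, 4 and 1 in sh-Lin41. The sh-Pfkp libraries were the high ones, and sh-ctrl and sh-Lin41 overlapped. Pramel6 had 1, 3 and 0 counts in sh-ctrl, 8, 21 and 17 in sh-Pfkp and 6, 2 and 8 in sh-Lin41, so here too sh-Pfkp held the highest libraries, and its lowest overlapped sh-Lin41. Both were below the low-count filter. With every gene that had a count entered in the fit, Pramel7 in sh-Pfkp exceeded its sh-Lin41 level by 2.87 on the log2 scale (edgeR adjusted p = 0.000236, n = 3 per group) and Pramel6 by 1.57 (adjusted p = 0.00878), where 20.5% of genes were called higher. In that fit 11 members were called higher and 1 lower in sh-Lin41 against sh-ctrl, where 20.1% and 19.8% of all genes were. In sh-Pfkp against sh-ctrl it called 19 higher, where 21.8% of all genes were, and again nothing is read from this count. Between sh-Lin41 and sh-ctrl the ratio of Pramel7 was 0.729, with a 95% counting interval from 0.176 to 2.87, and that of Pramel6 was 3.50, from 1.13 to 14.4.

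Pramel12 and Pramel13, the abundant members, differed in pattern, and neither shares a 100-base window with another gene. Pramel13 had 441, 403 and 466 counts in sh-ctrl, 496, 479 and 402 in sh-Pfkp and 457, 481 and 430 in sh-Lin41. Scaled to library size, it was at 25.5 ± 0.27, 24.7 ± 1.36 and 23.3 ± 0.369 CPM (SD, n = 3). The sh-Lin41 libraries lay below those of sh-ctrl, by 0.13 on the log2 scale (SE 0.0614), which missed the threshold (edgeR adjusted p = 0.0733, n = 3 per group). Its difference between sh-Pfkp and sh-ctrl was -0.04 (SE 0.0613), with overlapping libraries.

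Pramel12 had 310, 276 and 267 counts in sh-ctrl, 525, 543 and 404 in sh-Pfkp and 294, 309 and 246 in sh-Lin41, or 16.6 ± 1.81, 26.3 ± 2.45 and 14.4 ± 0.748 CPM (SD, n = 3). The sh-Pfkp libraries stood above all others. Pramel12 in sh-Pfkp exceeded its sh-ctrl level by 0.67 on the log2 scale (SE 0.0802) and its sh-Lin41 level by 0.87 (SE 0.0802, edgeR adjusted p = 6.32e-11, n = 3 per group). It was called lower in sh-Lin41 than in sh-ctrl by a small margin (-0.20, SE 0.0873, adjusted p = 0.0499), with overlapping libraries. That call was lost without sh-ctrl 1 (adjusted p = 0.2), sh-ctrl 2 (0.176), sh-Pfkp 1 (0.0543), sh-Lin41 1 (0.0674), sh-Lin41 2 (0.0609) or sh-Lin41 3 (0.178), and in DESeq2 (adjusted p = 0.0853). Pramel1, the third member with wholly unshared transcripts that passed the filter, had 13 to 22 counts in sh-ctrl, 18 to 22 in sh-Pfkp and 19 to 32 in sh-Lin41, and its groups overlapped. Its log2 difference was 0.08 (SE 0.328) in sh-Pfkp and 0.31 (SE 0.316, adjusted p = 0.421) in sh-Lin41.

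Most tested members of the chromosome 4 arrays had few reads in control libraries and more in both knockdowns. Pramel19 had 7, 3 and 5 counts in sh-ctrl, 38, 34 and 34 in sh-Pfkp and 13, 42 and 30 in sh-Lin41. Every knockdown library was above every control library, and sh-Lin41 1 was the lowest of the knockdown libraries. Pramel19 was higher in sh-Lin41 than in sh-ctrl by 2.28 on the log2 scale (SE 0.426, edgeR adjusted p = 3.36e-05, n = 3 per group), and in sh-Pfkp by 2.68 (SE 0.409). Its close relative Pramel18, 96.6% identical in coding sequence, had 4, 3 and 7 counts in sh-ctrl, 23, 14 and 28 in sh-Pfkp and 19, 5 and 20 in sh-Lin41. In Pramel18 the library sh-Lin41 2 lay among the controls, although the same library had the most Pramel19 counts of its group. Pramel18 was higher by 1.45 in sh-Lin41 (SE 0.536, adjusted p = 0.023) and by 2.08 in sh-Pfkp (SE 0.496). The sh-Lin41 call of Pramel18 was lost without sh-ctrl 1 (adjusted p = 0.0751), sh-ctrl 2 (0.0836), sh-Lin41 1 (0.0952) or sh-Lin41 3 (0.139), and with limma-voom (adjusted p = 0.0828). Summed over Pramel18 and Pramel19, the counts were 11, 6 and 12 in sh-ctrl, 61, 48 and 62 in sh-Pfkp and 32, 47 and 50 in sh-Lin41, so the groups did not overlap for the pair together.

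Pramel16, Pramel20 and Pramel31 form a second chromosome 4 set with the undetected Pramel28, linked by coding identities of at least 90%. Pramel16 had 4, 2 and 6 counts in sh-ctrl, 19, 20 and 25 in sh-Pfkp and 15, 15 and 22 in sh-Lin41. Pramel31 had 4, 9 and 10 counts in sh-ctrl, 31, 33 and 15 in sh-Pfkp and 23, 22 and 25 in sh-Lin41. Both were higher in all 6 knockdown libraries than in any control library. Against sh-ctrl, Pramel16 was higher in sh-Lin41 by 1.90 on the log2 scale (SE 0.462, edgeR adjusted p = 0.00083, n = 3 per group) and in sh-Pfkp by 2.27 (SE 0.443). Pramel31 was higher in sh-Lin41 by 1.40 (SE 0.382, adjusted p = 0.00252) and in sh-Pfkp by 1.64 (SE 0.374).

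Pramel20 had 0, 1 and 2 counts in sh-ctrl, 22, 27 and 8 in sh-Pfkp and 18, 12 and 12 in sh-Lin41. With 3 control counts in all, its ratio to control was 12.2 in sh-Lin41, with a 95% counting interval from 3.91 to 61.8 (edgeR adjusted p = 0.000118, n = 3 per group), and 17.6 in sh-Pfkp, from 5.71 to 87.6. These intervals cover counting error only. The library sh-Pfkp 3 was the lowest of its group in both Pramel20 and Pramel31 but the highest in Pramel16. Summed over the set, counts were 8, 12 and 18 in sh-ctrl, 72, 80 and 48 in sh-Pfkp and 56, 49 and 59 in sh-Lin41.

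Chromosome 4 members below the filter had the same direction in part. Pramel11 had 0, 0 and 1 counts in sh-ctrl, 10, 13 and 6 in sh-Pfkp and 10, 10 and 2 in sh-Lin41. Pramel24, 98.3% unshared, had 0, 0 and 4 counts in sh-ctrl, 2, 9 and 8 in sh-Pfkp and 9, 11 and 9 in sh-Lin41, so its highest group was sh-Lin41 and only there was it clear of control. Pramel30 had 0, 3 and 0 counts in sh-ctrl, 18, 12 and 7 in sh-Pfkp and 8, 4 and 3 in sh-Lin41. These members were near 0 in control libraries, and their knockdown counts were at most 18. In the fit without the filter, Pramel11 and Pramel24 were called higher in sh-Lin41 than in sh-ctrl (edgeR adjusted p = 0.000787 and 0.00296, n = 3 per group), and Pramel30 in sh-Pfkp exceeded its sh-Lin41 level (adjusted p = 0.0432). Pramel17 (1, 1 and 1 counts in sh-ctrl, 9, 15 and 3 in sh-Pfkp, 2, 4 and 3 in sh-Lin41) and Pramel21 (0, 1 and 0, then 7, 5 and 4, then 4, 2 and 2) also had their highest group in sh-Pfkp. Pramel14 had at most 5 counts in a library. Summed over the related Pramel11, Pramel21 and Pramel24, counts were 0, 1 and 5 in sh-ctrl, 19, 27 and 18 in sh-Pfkp and 23, 23 and 13 in sh-Lin41, with every knockdown library above every control.

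The chromosome 5 copies are those whose reads are shared most. Pramel45 had 1, 6 and 9 counts in sh-ctrl, 46, 38 and 42 in sh-Pfkp and 18, 15 and 20 in sh-Lin41, so the 3 groups were clear of each other, with sh-Lin41 in the middle. Pramel45 was higher than in sh-ctrl by 1.52 on the log2 scale in sh-Lin41 (SE 0.439, edgeR adjusted p = 0.00416, n = 3 per group) and by 2.84 in sh-Pfkp (SE 0.374). Pramel40, a relative with 13.7% unshared windows, had 5, 1 and 4 counts in sh-ctrl, 26, 16 and 25 in sh-Pfkp and 28, 24 and 22 in sh-Lin41. Here both knockdowns stood at a similar height, and the log2 difference from sh-ctrl was 2.66 in sh-Lin41 (SE 0.446, adjusted p = 7.28e-06) and 2.59 in sh-Pfkp (SE 0.453). Summed with Pramel41 and Pramel44, which had 0 and 2 counts in all, the set had 6, 7 and 13 counts in sh-ctrl, 73, 54 and 68 in sh-Pfkp and 46, 39 and 42 in sh-Lin41.

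Pramel36 and Pramel49, identical in coding sequence as printed above, cannot be told apart by reads from it. Pramel36 had 4, 10 and 6 counts in sh-ctrl, 28, 28 and 26 in sh-Pfkp and 9, 18 and 14 in sh-Lin41. Pramel49 had 4, 2 and 6 counts in sh-ctrl, 19, 28 and 26 in sh-Pfkp and 9, 18 and 14 in sh-Lin41. The counts of the 2 genes were equal in 7 of 9 libraries, and only sh-ctrl 2 and sh-Pfkp 1 differed. Pramel49 was called higher in sh-Lin41 than in sh-ctrl (1.55, SE 0.486, edgeR adjusted p = 0.00762, n = 3 per group), whereas Pramel36, with the same sh-Lin41 counts, was not (0.83, SE 0.431, adjusted p = 0.106) until sh-ctrl 2 was left out (adjusted p = 0.0363). The difference between those calls lies in the 10 and 2 counts given to the copies in that 1 control library. Against sh-ctrl, sh-Pfkp was higher by 1.90 (SE 0.379) for Pramel36 and by 2.46 (SE 0.434) for Pramel49.

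The second identical pair had the same order of groups. Pramel50 had 8, 2 and 2 counts in sh-ctrl, 14, 11 and 10 in sh-Pfkp and 7, 8 and 9 in sh-Lin41, and Pramel37 had 0, 0 and 2, then 11, 4 and 9, then 7, 7 and 5. The 8 counts of Pramel50 in sh-ctrl 1 fall among the sh-Lin41 values, where Pramel37 had 0. Together with Pramel43 and Pramel46, these 6 copies had 16, 14 and 16 counts in sh-ctrl, 72, 76 and 71 in sh-Pfkp and 32, 51 and 42 in sh-Lin41. The sum put the groups clear of each other in the order sh-ctrl, sh-Lin41, sh-Pfkp. The members of another set on this chromosome, Pramel33, Pramel35, Pramel38, Pramel42 and Pramel48, had 0 counts in all 9 libraries.

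**Figure D4:**
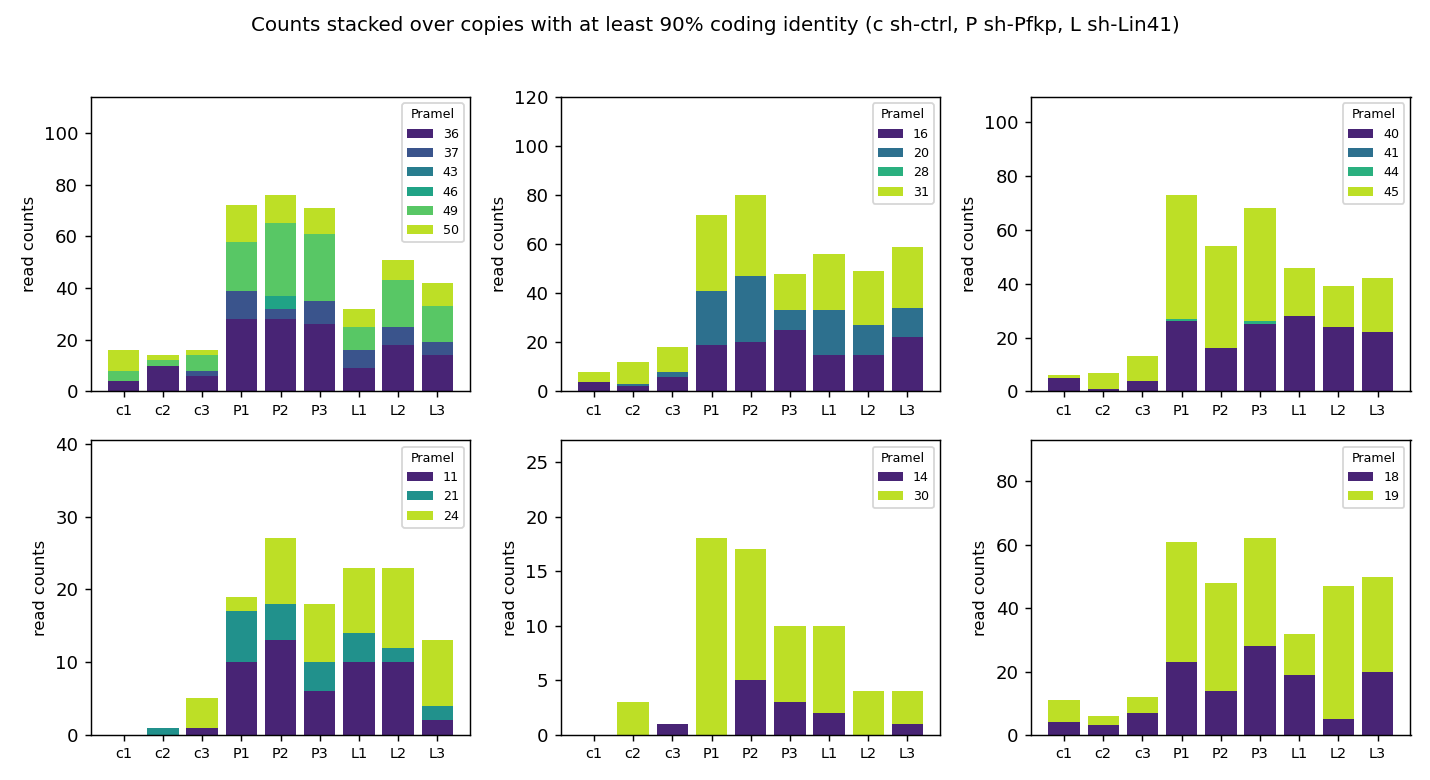
Each panel is a set of Pramel copies linked by at least 90% coding identity, with the read counts of each of the 9 libraries on the vertical axis stacked by member. In the first panel (Pramel36, 37, 43, 46, 49 and 50) the sums are 14 to 16 in sh-ctrl, 71 to 76 in sh-Pfkp and 32 to 51 in sh-Lin41, although the split between copies varies from library to library.

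Members whose 100-base windows were almost wholly unshared were summed as well. With 50-base windows the unshared share was 85.2% for Pramel24 and 74.1% for Pramel5, so shorter reads from these 2 members are less assignable. The 8 members with at least 95% unshared windows, leaving out Pramel12 and Pramel13, together had 20, 19 and 26 counts in sh-ctrl, 45, 63 and 57 in sh-Pfkp and 36, 39 and 50 in sh-Lin41. All 6 knockdown libraries lay above the controls, and the knockdowns overlapped. Most of the control counts in this set were those of Pramel1. Members were also split by chromosome, again leaving out Pramel12 and Pramel13: chromosome 4 copies together had 36, 36 and 59 counts in sh-ctrl, 198, 206 and 166 in sh-Pfkp and 144, 149 and 161 in sh-Lin41. Chromosome 5 copies had 22, 21 and 29, then 145, 130 and 139, then 78, 92 and 84. Neither chromosome accounted alone for the higher sums. X-linked Pramel3 had 0, 0 and 0 counts, then 2, 2 and 0, then 2, 0 and 5. The 6 remaining detected members, Pramel5, Pramel32, Pramel44, Pramel46, Pramel47 and Pramel51, had 1 to 5 counts over all 9 libraries, and none of those counts was in sh-ctrl.

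The 2 knockdowns were then compared directly, where the control libraries enter only the low-count filter, the scaling and the shared estimate of spread. The sh-Pfkp libraries are those on which the family was taken up, so this comparison is a description as well. Of the 12 tested members, 4 were called higher in sh-Pfkp (Pramel12, Pramel36, Pramel45 and Pramel49) and 0 lower in edgeR, where 27.4% of all genes tested were called higher and 27.8% lower. No member was lower at an unadjusted p under 0.05 either (0 of 12), and 0 were in DESeq2, limma-voom or limma-trend. Of the 29 members with any count, sh-Pfkp lay wholly above sh-Lin41 for 8 and wholly below for 0, against 23.3% and 23.5% of all genes with a count. The counts on the higher side, 4 of 12 (33.3%) and 8 of 29 (27.6%), are near their background. Those on the lower side, 0 of 12 and 0 of 29, are below theirs, and nothing is read from either side. Pramel36 and Pramel49 have identical coding sequences, so their calls are not independent. Pramel36 was higher by 1.07 on the log2 scale (SE 0.326, edgeR adjusted p = 0.00592, n = 3 per group) and Pramel49 by 0.91 (SE 0.335, adjusted p = 0.0224). Pramel45 and Pramel19, known for their sh-Pfkp levels, differed by 1.32 (SE 0.293) and 0.40 (SE 0.289). The Pramel36 call was lost without sh-Lin41 1 (adjusted p = 0.0519), and that of Pramel49 without sh-Pfkp 2 (0.0756), sh-Pfkp 3 (0.0857) or sh-Lin41 1 (0.132) and in DESeq2 (adjusted p = 0.0701). Without sh-ctrl 1, sh-ctrl 2 or sh-ctrl 3 in turn, the filter passed 16 members and 7 were called higher. Of all genes tested in these fits, 3732 of 13379, 3722 of 13396 and 3680 of 13373 were called higher. For Pramel16, Pramel18, Pramel20, Pramel31 and Pramel40 the difference was between -0.06 and 0.64, with overlapping libraries and adjusted p between 0.169 and 0.877, which does not show that the knockdowns act alike.

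**Figure D5:**
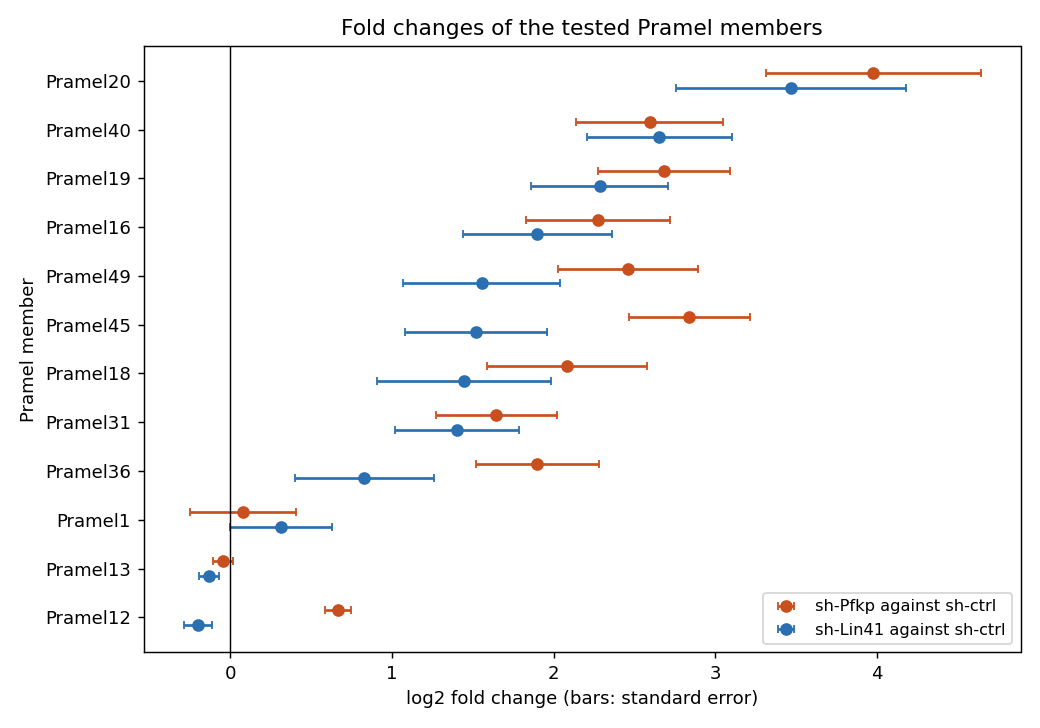
Points are log2 fold changes of the 12 tested Pramel members against sh-ctrl, for sh-Pfkp in orange and sh-Lin41 in blue, with bars of 1 standard error (3 libraries per group). Pramel20 has 3 control counts in all and its fitted value depends on them; Pramel12 is the member whose blue and orange points stand on opposite sides of 0 and clear of it, at -0.20 and 0.67.

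The authors' deposited table of their own comparison lists 16 members with an FDR under 0.05 and a log2 ratio above 1 in sh-Pfkp against sh-ctrl, and 8 in sh-Lin41 against sh-ctrl, with 0 members past these limits in the lower direction in either. Of all 22322 genes of the authors' deposited table, 1.54% were past these limits in the higher and 2.6% in the lower direction in sh-Pfkp, and 1.0% and 1.12% in sh-Lin41; nothing is read from the sh-Pfkp count. In the authors' deposited table the 8 of sh-Lin41 were Pramel11, Pramel16, Pramel19, Pramel20, Pramel24, Pramel31, Pramel40 and Pramel45. Pramel11 and Pramel24, below the filter here, are among them, and Pramel18 and Pramel49 are not.

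Genes around the family were read from lists. Of 23 listed PRAME-family names without a Pramel symbol, 7 were matched in the tables used here. Many unmatched names are GENCODE M21 symbols of members treated above, such as Pramef8 for Pramel12, Pramef12 for Pramel13 and Pramef25 for Pramel16. Of the 7 matched genes, 4 had a count and 0 passed the filter, so none of these could be called. Oog1, an oocyte member, had 0 counts in the sh-ctrl and sh-Pfkp libraries and 1, 1 and 2 in sh-Lin41, and X-linked Pramex1 had at most 2 counts in a library. A difference between groups was not detectable in these relatives at this depth.

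All 13 genes listed for the route from PRAMEL7 to DNA methylation passed the filter. Of these, 4 rose and 6 fell in sh-Lin41 against sh-ctrl (median log2 fold change -0.06, against 0.00 for all genes tested), where 26.9% of all genes tested were called higher and 27.3% lower. In sh-Pfkp 7 were higher and 3 lower (median 0.06), where each share was 28.3%. The PRAMEL7 substrate gene Uhrf1, named for that role and not for its rank by adjusted p, was lower in both, by -0.19 (SE 0.023, edgeR adjusted p = 3.04e-08) in sh-Lin41 and -0.12 (SE 0.023) in sh-Pfkp. The de novo methyltransferase genes Dnmt3a (-0.65, SE 0.0345, adjusted p = 1.16e-16) and Dnmt3b (-0.54, SE 0.0278, adjusted p = 3.6e-17) fell in sh-Lin41, and in sh-Pfkp they were at 0.28 (SE 0.0318) and 0.06 (SE 0.0267). Dnmt3l, their regulatory partner, also fell in sh-Lin41 (-0.10, SE 0.0283, adjusted p = 0.00254) and was at 0.24 (SE 0.0277) in sh-Pfkp. Tet2, a 5-methylcytosine dioxygenase, rose in sh-Lin41 (0.75, SE 0.0194, adjusted p = 1.51e-24) and was at 0.04 (SE 0.02, not called) in sh-Pfkp. Transcripts only were measured, so UHRF1 protein was not assessed.

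The LIF and STAT3 list had calls in both directions. Of 13 genes, 5 rose and 4 fell in sh-Lin41, where 26.9% and 27.3% of all genes tested were called, and 4 rose and 7 fell in sh-Pfkp, against 28.3% each way. The medians were -0.02 and -0.06. Klf4, a naive pluripotency factor gene, rose in sh-Lin41 (0.46, SE 0.0243, edgeR adjusted p = 6.84e-17) and fell in sh-Pfkp (-0.23, SE 0.0256, adjusted p = 6.02e-09). Gbx2, a homeobox gene downstream of LIF and STAT3, rose in both (0.62, SE 0.0355, adjusted p = 6.84e-16, and 0.26, SE 0.037). Pim1, a kinase gene induced by STAT3, fell in both (-0.71, SE 0.0435, and -0.64, SE 0.0436). Socs3, the feedback inhibitor of the pathway, fell in sh-Lin41 (-0.28, SE 0.0318) and was not called in sh-Pfkp (0.07, SE 0.031).

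Most tested markers of the 2-cell-like state were higher in both knockdowns. In the 2-cell-like state, rare stem cells express genes of the 2-cell embryo. Of 32 listed names, 24 were matched in the tables used here. The unmatched names B020004J07Rik and BC061212 are GENCODE M21 symbols of the members Pramel17 and Pramel37, which were not counted here. Of the 24 matched genes, 17 were tested. Of these, 17 were called higher in sh-Pfkp, where 28.3% of all genes tested were, and 15 in sh-Lin41, where 26.9% were; 0 were lower in either in edgeR, also at an unadjusted p under 0.05. Markers low in sh-ctrl, such as Usp17la at 0.144 CPM and Tdpoz3 at 0.177, passed the filter only through libraries in which they were high. These call counts therefore describe the tested markers and support nothing further. Of the untested markers, Duxf3, Tcstv1, Tcstv3, Spz1 and AF067063 overlapped sh-ctrl in both knockdowns, and Usp17ld lay above it in sh-Pfkp only. The summed level of the 24 matched genes was 22.2 to 29.8 CPM in sh-ctrl, 117.8 to 123.2 in sh-Pfkp and 102.2 to 108.2 in sh-Lin41. Zscan4f, the defining marker with the smallest adjusted p, was higher by 2.51 (SE 0.101, edgeR adjusted p = 8.88e-20) in sh-Lin41 and by 2.63 (SE 0.101) in sh-Pfkp, and Tdpoz1 was at 0 in all libraries. The Zscan4f paralogues Zscan4c, Zscan4d and Zscan4e, whose reads may be shared, were higher in sh-Lin41 by 1.99 (SE 0.112), 2.23 (SE 0.139) and 2.32 (SE 0.138). The part of 2-cell-like cells in the Pramel levels was not tested.

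Many PRAME genes are known to be transcribed in germ cells. Of 30 listed germ cell markers, 13 were tested, with 4 higher and 3 lower in each knockdown, near the shares of all genes tested (28.3% each way in sh-Pfkp, 26.9% and 27.3% in sh-Lin41). Their summed levels were 164.7 to 168.4 CPM in sh-ctrl, 174.4 to 184.5 in sh-Pfkp and 190.5 to 199 in sh-Lin41. The meiotic gene Hormad1 rose in sh-Lin41 (1.04, SE 0.0625, edgeR adjusted p = 2.29e-15), whereas Sycp3 (-1.24, SE 0.0981, adjusted p = 2.09e-12) and the germ line helicase gene Ddx4 (-1.08, SE 0.0935, adjusted p = 1.61e-11) fell. All were called in the same directions in sh-Pfkp, at 0.53 (SE 0.0666), -0.87 (SE 0.095) and -0.64 (SE 0.09). The sperm and oocyte genes Acrv1, Oosp1, Prm1, Prm2, Tnp1, Zp1 and Zp2 were at 0 in all 9 libraries. Trophoblast markers summed to 67.97 to 73.84 CPM in sh-ctrl, 67.02 to 71.27 in sh-Pfkp and 48.29 to 51.62 in sh-Lin41, primitive endoderm markers to 5.66 to 8.63 CPM over all libraries, and stromal markers to 5.38 to 5.84 CPM in sh-ctrl, 25.5 to 29.5 in sh-Pfkp and 4.68 to 5.73 in sh-Lin41. Of the 6 stromal markers tested, 5 were higher and 1 was lower in sh-Pfkp than in sh-ctrl, where 28.3% of all genes tested were called each way. Their median log2 fold change was 6.98, and markers so low outside sh-Pfkp pass the filter only through it. The part of stromal cells in the sh-Pfkp levels of Pramel genes was not tested.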

How the data were processed

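RNA-seq gene tables of 9 libraries were used. Per the submitters' processing notes, the authors' tools include RSEM, HISAT2, StringTie 1.3.1, Bowtie2 2.2.8 and fastp 0.18.0; genome build, annotation and strand were not given in the sources used here. The deposited counts, whole numbers in 1 column per library per the file headers, may be rounded estimates. FPKM per library, and the log2 ratios, p-values and FDR of the authors' comparisons, were deposited beside them.

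Counts entered edgeR 4.0.16 (R 4.3.3): filterByExpr, TMM, 1 quasi-likelihood fit of all 9 libraries, Benjamini-Hochberg adjustment over 13158 genes, threshold 0.05. SE is log2 fold change over the root of F. The steps were tested on simulated data. Alternatives used DESeq2 1.42.0, limma 3.58.1, other filters and scalings, and omission of each library. Counting intervals (95%) are exact.

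Copies were compared on GENCODE M21 (GRCm38) transcripts, promoters taken from RefSeq. Members and gene lists were chosen with earlier results of these data known. By rule, library counts were given for each tested member called in at least 1 comparison; outside the family, up to 4 called genes per related list with the smallest adjusted p in any comparison were named, and Uhrf1 besides. Replicate pairs had a median chi-square of 0.663 to 0.769 against 0.455 from counting noise, so no pair was merged.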

Additional observations from a re-analysis of the deposited data

How the results depend on the processing

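Depth limits these results: 11 of the 23 members with at least 10 counts failed the low-count filter. Without the filter, 19 members were called higher in sh-Pfkp than in sh-ctrl, against 10, where 21.8% of all genes were, against 28.3%. Nothing is read from these counts, since the family was chosen on that comparison. In sh-Pfkp against sh-Lin41, 7 rather than 4 members were called higher without the filter, where 20.5% of all genes were, against 27.4%. With a 2-fold minimum, 2 members and 193 of 13158 genes were called higher there. With 1 library left out, 3 to 7 members were, and 3417 to 3732 of 13325 to 13398 genes. The 1 member lower in sh-Lin41, Pramel12, became 0 in DESeq2, with limma-voom and with a 2-fold minimum, and 0 to 1 with 1 library left out. The log2 ratio of the family total was 0.602 in sh-Pfkp against sh-ctrl and 2.23 without Pramel12 and Pramel13 (chosen after seeing the data); in sh-Lin41 it was 0.121, 0.207 from summed FPKM and 1.61 without those members; between the knockdowns it was 0.481, 0.394 and 0.617. No direction was reversed in any setting run. The cause of these changes was not tested. With 1 library left out, a group of 2 was fitted with the spread shared by all groups.

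Whether replicate numbers pair the libraries is not given by the labels and was not settled by the values: deviations of equally numbered sh-ctrl and sh-Pfkp libraries correlated by 7.26e-05, 0.125 and 0.0887 across genes tested, and by 0.108, 0.307 and 0.449 across the 8630 genes of at least 10 CPM, where pairs with sh-Lin41 gave -0.314 to 0.0344. With the replicate number as a block, 10 members were higher in sh-Pfkp and 8 in sh-Lin41 than in sh-ctrl, and 4 in sh-Pfkp against sh-Lin41, as without it.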
